A study of Mus musculus with 6 samples.

Results

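The cells described here are barcodes marked by monocyte and dendritic cell genes in droplet RNA libraries from mouse brain, and they number 84 of 94144 kept cells, or 0.0892%. A barcode was kept when it held at least 500 UMIs (unique molecular identifiers, each standing for 1 captured RNA molecule), at least 300 genes and at most 15% of UMIs from mitochondrially encoded genes. The cells were selected on measured counts: a kept cell was taken when at least 3 of 8 genes had a UMI and fewer than 2 of 8 others did. The 8 selecting genes were Ccr2, Ly6c2, Plac8, Chil3, Cd209a, Flt3, Itgax and Ms4a6c. The 8 others were Tmem119, Siglech, P2ry12, Mrc1, Cd3e, Cd79a, Csf3r and Cldn5, which mark microglia, border macrophages, T cells, B cells, neutrophils and endothelium.

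The groups compared had 2 libraries each: TRPM2 Mg KO mice given bilirubin, WT mice given bilirubin, and WT mice given vehicle. TRPM2 is a calcium-permeable cation channel, and bilirubin is the pigment made when haem is broken down. The labels describe the material as brain cells, freshly dissociated and captured on a droplet platform that reads the 3' end of each transcript. They do not expand "Mg", name the promoter or cells in which Trpm2 was deleted, or give a dose, time, brain region, age or sex. The samples analysed here hold no knockout group with vehicle, so an effect of the genotype alone cannot be told apart from its effect under bilirubin. The labels do not say that the replicates are separate animals, so every spread below is a spread between libraries that may be technical.

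Classical monocytes are made in bone marrow, carry the chemokine receptor Ccr2 and leave the blood for inflamed tissue along the ligand Ccl2. Conventional dendritic cells arise under the growth factor receptor Flt3, take up antigen and show it to T cells on MHC class II, while plasmacytoid dendritic cells make interferon. In a healthy brain these cells lie mostly in the meninges, the choroid plexus and the vessels rather than in the tissue itself, and a dissociated brain can also carry them over in blood.

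The 6 libraries held 24165563 to 63402551 UMIs over 4137 to 24309 deposited barcodes, with 33696 genes listed. Kept cells numbered 16274 and 4134 in knockout replicates 1 and 2, 20834 and 8593 in WT bilirubin, and 20003 and 24306 in WT vehicle; pairs of values below follow this order of replicates. Of the kept barcodes, 954 occurred in more than 1 library, and none of the 84 cells shared its barcode with another of the 84. The median mitochondrial share of the 84 cells was 2.19% and 2.81% in the knockout, 2.79% and 0.192% in WT bilirubin, and 0.237% and 0.335% in WT vehicle. WT bilirubin replicate 2 was therefore nearer to the vehicle libraries than to its own partner in this measure. The same held in the other kept cells, at 5.67% and 3.81% in the knockout, 7.22% and 0.661% in WT bilirubin, and 1.07% and 0.855% in WT vehicle. The part of these differences in the results below was not tested.

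Trpm2 itself was almost unread in the 84 cells, with 0 and 0 UMIs in the knockout, 0 and 2 in WT bilirubin and 1 and 0 in WT vehicle. Counts from the 3' end of a transcript check the knockout only if the deleted part lies there, which the labels do not say.

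The rule selected monocyte genes more than dendritic-cell genes. Plac8 had a UMI in 77 of the 84 cells, Ms4a6c in 60, Ly6c2 in 56, Ccr2 in 50 and Chil3 in 42. The dendritic-cell genes were rarer, with Cd209a, a C-type lectin, in 15 cells, the integrin chain Itgax in 11 and Flt3 in 7. Exactly 3 of the 8 genes were seen in 43 cells, 4 in 17, 5 in 23 and 6 in 1. Of the excluded genes, Siglech was the most frequent, in 9 cells, and Cd79a was in none. Siglech is also on the list of plasmacytoid dendritic cell markers, so the rule limited a gene of that cell type too. Of its 9 cells, 7 fell in cluster 2, described below.

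Myeloid genes that the rule did not use were common in the 84 cells. Lyz2, the lysozyme of myeloid cells, had a UMI in 77.4% of them (95% exact binomial interval 67.0 to 85.8%), against 18.6% of 11178 choroid plexus cells of the same libraries, an epithelium that should lack it. The median depth was 4770 UMIs in the 84 cells and 6400.5 UMIs in the choroid plexus cells, so the lower share came at the greater depth. S100a4, a calcium-binding protein of motile leukocytes, had a UMI in 69.0% and 3.50% of those cells. Spi1, which encodes the myeloid master regulator PU.1, had a UMI in 67.9% and 16%, and the inflammatory cytokine gene Il1b in 46.4% and 1.86%. Cd74, the MHC class II invariant chain, was in 38.1% and 14.1%, and H2-Aa, an MHC class II chain, in 25% and 4.14%. Some genes had a high share in both, such as the signalling adaptor Tyrobp at 95.2% and 69.5%, and shares of this kind cannot be told apart from free RNA. Xcr1, which marks type 1 conventional dendritic cells, was at 0 of 84 cells (95% exact binomial interval up to 4.30%), and Clec9a and the migration receptor Ccr7 were each in 1 cell.

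**Figure D1:**
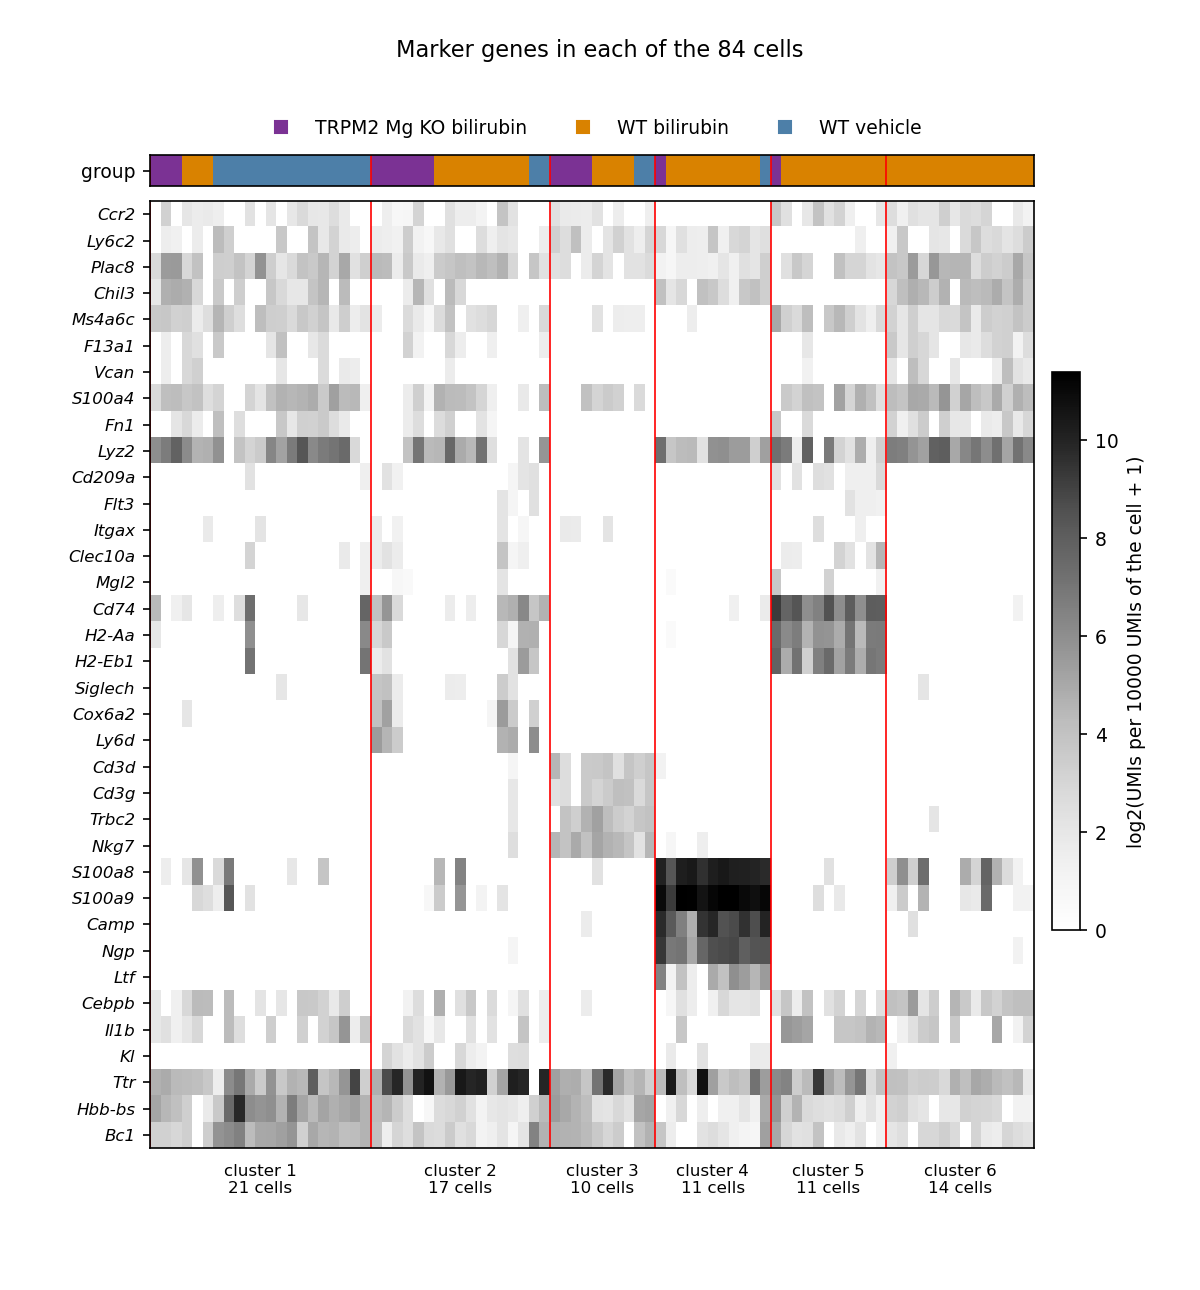
Marker genes (rows) in each of the 84 cells (columns), coloured by UMIs, with the cells ordered by cluster. Lyz2 is spread over all clusters but cluster 3, while the T cell and neutrophil genes fill clusters 3 and 4.

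The threshold of 3 genes lies in a dense part of the data. Among the 43 cells with exactly 3 of the 8 genes, 12 held at least 5 of 12 neutrophil markers and 8 held at least 3 of 8 T cell markers. Among the 41 cells with 4 or more, 1 and 2 did so. Lyz2 had a UMI in 69.8% of the 43 cells and in 85.4% of the 41. Just outside the rule lay 154 cells with exactly 2 of the 8 genes. Of these, 44.8% had Lyz2 and 41.6% had the T cell gene Cd3d. Another 30 cells held at least 3 of the 8 genes but were refused by the excluded genes. Their median depth was 8196.5 UMIs and 17 of them held at least 3 microglia markers. They numbered 5 and 9 in the knockout, 9 and 2 in WT bilirubin, and 0 and 5 in WT vehicle, so knockout replicate 2 lost 9 cells to the excluded genes and kept 3.

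Clustering split the 84 cells into 6 groups, and 21 cells went against the label. Cluster 3 (10 cells) was T cell-like, with 7 of 8 T cell markers set apart, and was led by the granzyme gene Gzma, the chemokine gene Ccl5, Nkg7 and the T cell receptor gene Trbc2. Lyz2 had a UMI in 0 of these 10 cells. Cluster 4 (11 cells) was neutrophil-like, with 10 of 12 neutrophil markers set apart, and was led by the granule genes Camp and Ngp and the calprotectin gene S100a9. The 12 neutrophil markers made up 13.6 to 53.8% of the UMIs of a cell in that cluster, and the other clusters held medians of 0 to 0.129%.

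Clusters 5 and 6 were named from dendritic cell and monocyte markers, some of which the rule itself had selected on. Cluster 5 (11 cells) was type 2 conventional dendritic cell-like. It was led by H2-Aa, Cd74 and H2-Eb1, and 6 of 10 markers of that type were set apart. Without the rule's own genes 4 of 7 were, among them Clec10a and Mgl2. Cluster 6 (14 cells) was classical monocyte-like, with 8 of 12 markers set apart. Without the rule's own genes 6 of 8 were, among them the coagulation factor gene F13a1 and the matrix proteoglycan gene Vcan. Ccl2 and Cebpb were also among the leading genes of cluster 6.

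Clusters 1 and 2 stayed unnamed. Cluster 1 (21 cells, median 3569 UMIs) was led by the interferon-induced gene Isg15, the haemoglobins and the neuronal transcript Meg3, although 19 of its cells had a Lyz2 UMI. Cluster 2 (17 cells, median 5317 UMIs) was led by Ly6d and Cox6a2, which mark plasmacytoid dendritic cells, and by Kl, Enpp2 and Ttr, which mark choroid plexus epithelium. Of its 17 cells, 6 held at least 2 plasmacytoid genes, 10 held at least 2 choroid plexus genes and 2 held both, so cluster 2 mixed cells of more than 1 kind.

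The clusters were not spread evenly over the libraries. The classical monocyte-like cells numbered 0 and 0 in the knockout, 2 and 12 in WT bilirubin, and 0 and 0 in WT vehicle. The dendritic cell-like cells numbered 1 and 0 in the knockout, 3 and 7 in WT bilirubin, and 0 and 0 in WT vehicle. WT bilirubin replicate 2 alone held 19 of these 25 cells. Of the 21 cells of cluster 1, 14 came from WT vehicle replicate 2, and of the 11 neutrophil-like cells 8 came from WT bilirubin replicate 2. Cluster 2 was the only one with a cell in every library. No test was run on these cells, since the genes that formed the clusters also differed between libraries. The counts follow the clusters, and cells of other clusters held such markers too. At least 3 of 12 classical monocyte markers, which include selecting genes, had UMIs in 11 and 3 knockout cells. They did so in 14 and 31 cells of WT bilirubin and 1 and 17 of WT vehicle. For at least 3 of 10 type 2 dendritic cell markers, the knockout had 6 and 0 cells. WT bilirubin had 2 and 10, and WT vehicle 1 and 2.

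**Figure D2:**
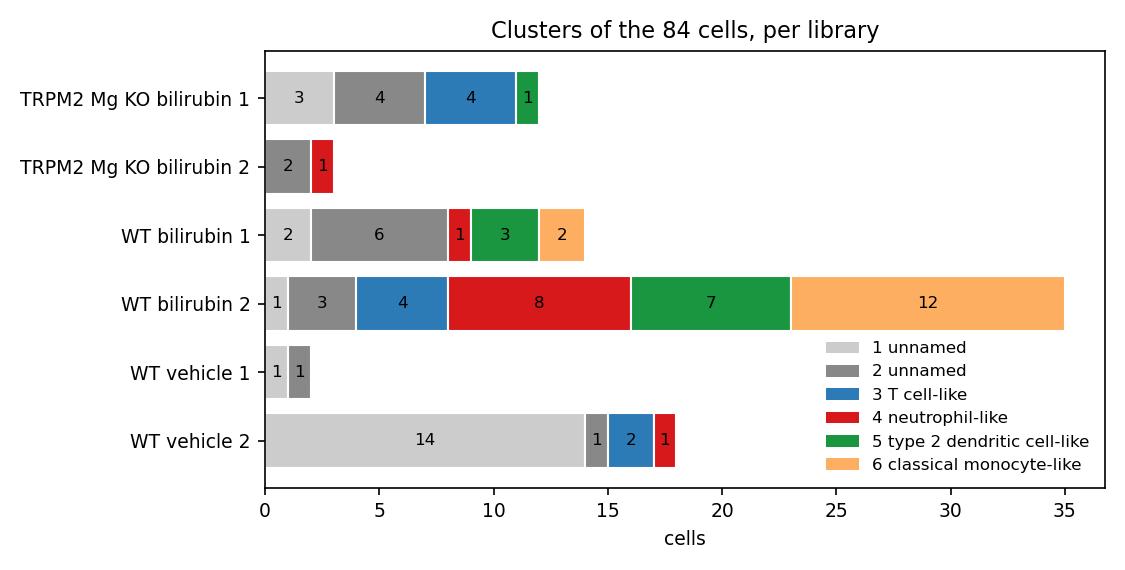
Number of the 84 cells in each cluster (bars) in each library, with the knockout libraries first. The classical monocyte-like and dendritic cell-like clusters hold 25 cells, 24 of them in the WT bilirubin libraries.

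The first comparison asked how many of these cells each group held. Their share of kept cells was 0.0737% in knockout replicate 1 (12 cells, 95% exact binomial interval 0.0381 to 0.129%) and 0.0726% in replicate 2 (3 cells, 0.0150 to 0.212%). In WT bilirubin it was 0.0672% (14 cells, 0.0367 to 0.113%) and 0.407% (35 cells, 0.284 to 0.566%). In WT vehicle it was 0.0100% (2 cells, 0.00121 to 0.0361%) and 0.0741% (18 cells, 0.0439 to 0.117%). Of the 6 libraries, 4 lay between 0.0672% and 0.0741%, and WT bilirubin replicate 2 and WT vehicle replicate 1 stood apart on opposite sides. All intervals and floors here cover counting error only.

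No difference in share could be shown. The mean was 0.0732% ± 0.000826 in the knockout, 0.237% ± 0.240 in WT bilirubin and 0.0420% ± 0.0453 in WT vehicle (SD, n = 2 each). An exact two-sided permutation test over libraries, which cannot go below p = 0.333 with 2 against 2, gave p = 1 for knockout minus WT bilirubin (-0.164 percentage points), p = 0.667 for WT bilirubin minus WT vehicle (0.195) and p = 1 for knockout minus WT vehicle (0.0311). Adjusted over these 3 comparisons, each p was 1. Without WT bilirubin replicate 2, knockout minus WT bilirubin was 0.00596 percentage points, with the opposite sign, and WT bilirubin minus WT vehicle was 0.0252. Without WT vehicle replicate 1, knockout minus WT vehicle was -0.000903.

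The highest and the lowest library stayed the same when depth was made equal. Deeper cells meet a rule on detected genes more easily, and the 84 cells had median depths of 4565 and 7888 UMIs in the knockout, 4973 and 4973 in WT bilirubin, and 3807 and 3624.5 in WT vehicle. The other kept cells had 1571 and 2071 in the knockout, 1670 and 1908 in WT bilirubin, and 1153 and 1923.5 in WT vehicle. When each kept cell of at least 1000 UMIs was thinned to 1000, the share was 0.0206% and 0.0224% in the knockout, 0.0260% and 0.164% in WT bilirubin, and 0.00617% and 0.0325% in WT vehicle. Thinning left out 3705, 5745 and 9314 shallower cells of the knockout, WT bilirubin and WT vehicle. WT bilirubin replicate 2 was again the highest and WT vehicle replicate 1 the lowest, and the other 4 lay between 0.0206% and 0.0325% in a changed order. The thinned shares rest on means of 2.75 and 0.75 cells in the knockout, 4.55 and 10.15 in WT bilirubin, and 0.85 and 6.9 in WT vehicle. The order of the lower libraries therefore says little.

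**Figure D3:**
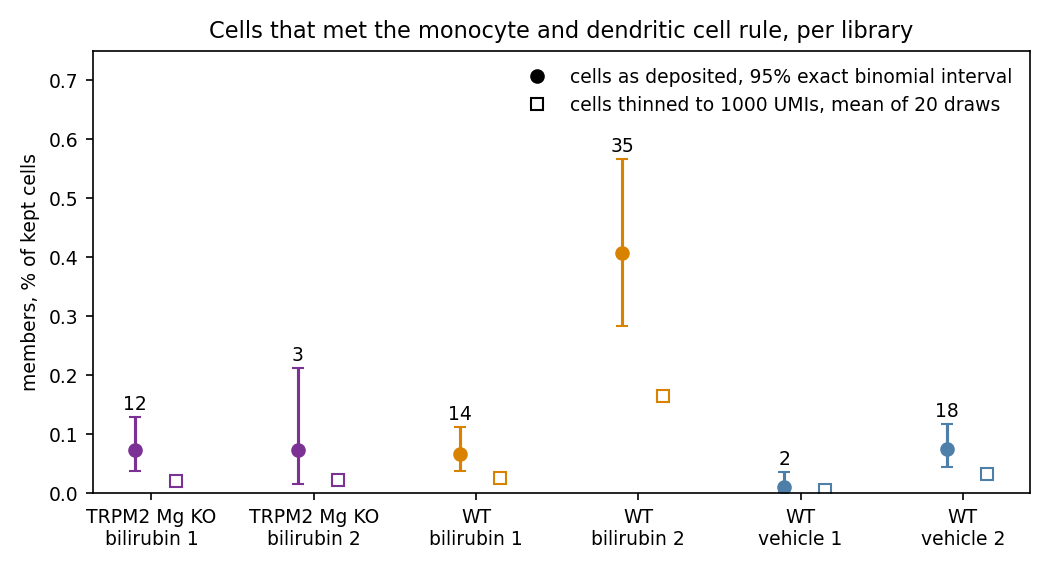
Share of kept cells that met the rule, in percent, per library as deposited (with 95% exact binomial intervals) and after thinning to 1000 UMIs. WT bilirubin replicate 2 lies at 0.407% and at 0.164% after thinning, above the other libraries in both.

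For gene levels, the UMIs of these cells were summed per library and given as CPM, the usual scaling of counts by the sum of the library. The sums held 79257 and 32479 UMIs in the knockout, 99091 and 185183 in WT bilirubin, and 7614 and 68033 in WT vehicle, so 3 UMIs were worth 37.9 and 92.4 CPM in the knockout, 30.3 and 16.2 CPM in WT bilirubin, and 394 and 44.1 CPM in WT vehicle. A level of 0 in WT vehicle replicate 1, from 2 cells, therefore says little. Because WT vehicle replicate 1 held 2 cells and knockout replicate 2 held 3, no statistical test of a gene was made. Genes with at least 20 UMIs in the 4 libraries were compared, and a gene is called higher or lower below when both libraries of a group lay beyond both of the other, and overlapping otherwise. This is a description and not a test: among simulated libraries of these sizes, genes that had not been changed were often separated too. With 2 against 2 libraries, a share of 0.333 of their possible orders separates the groups completely. A count of separated genes near that share is therefore not by itself a difference between groups. Of the genes compared, 29.5% were separated for knockout against WT bilirubin. The share was 34.9% for WT bilirubin against WT vehicle and 38.1% for knockout against WT vehicle. Ratios are log2 of the group means after 50 CPM were added to each, which shrinks the ratios of low genes. These are pooled cells, so fewer cells of a type and less RNA per cell cannot be told apart.

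Under bilirubin, Cebpb, Cebpd, Il1b, Ccl2, S100a4, S100a6 and Vcan were each lower in the cells of the knockout libraries, and Mt3, Glul and Kl were each higher. Apart from Cebpb these genes were picked by their values, and in the gene lists below most members overlapped except among MHC class II genes and the few calcium-entry genes. Over all 2550 genes, 380 were higher (14.9%) and 373 lower (14.6%) without overlap, and the median ratio was 0.01. Under the scaling by the median ratio of genes described below, 325 were higher (12.7%) and 459 lower (18%), with a median ratio of -0.03. Among the 63 cells outside the T cell-like and neutrophil-like clusters, the shares were 18.3% higher and 22.1% lower of 1912 genes. The counts of gene lists below read against these shares. Of 27 named genes without overlap, the ratio of 17 shrank by more than 1.5 times when some 1 library was left out. Among the 63 cells 8 were not separated, whether overlapping or too low to compare.

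Cebpb, which encodes the transcription factor C/EBP beta of myeloid activation, had 88.3 and 123 CPM in the knockout, against 737 and 610.2 CPM in WT bilirubin. These rest on 7 and 4 UMIs against 73 and 113, and WT vehicle had 0 and 309 CPM. The knockout libraries lay below both WT bilirubin libraries, with a log2 ratio of -2.22, and both were below WT vehicle replicate 2 too. The gene had a UMI in 6 of 15 cells in the knockout, 37 of 49 in WT bilirubin and 9 of 20 in WT vehicle. In all other kept cells Cebpb was at 14.2 and 13.4 CPM in the knockout, 93.6 and 74.5 CPM in WT bilirubin and 49.4 and 37.5 CPM in WT vehicle, so the knockout was the lowest in those cells.

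Cluster make-up moved with this difference: Cebpb was a leading gene of the classical monocyte-like cluster, which had cells in WT bilirubin only. Within the unnamed clusters 1 and 2 combined, which had cells in every library, Cebpb was at 81.6 and 162 CPM in the knockout, 778 and 476 CPM in WT bilirubin and 0 and 398 CPM in WT vehicle. The knockout libraries lay below both WT bilirubin libraries there as well, on 7 and 2 cells against 8 and 4. Cluster 2 mixed cells of more than 1 kind, so values within clusters 1 and 2, here and below, do not hold cell type fixed. Over the alternatives tried the ratio ran from -2.46 to -1.11, the smallest with 0 excluded genes allowed, which left 2 and 1 knockout cells.

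Of 20 myeloid transcription factors compared, 5 were lower in the knockout, 1 was higher and 14 overlapped, with a median ratio of -0.34. Cebpd, another C/EBP family member, had 0 and 30.8 CPM in the knockout, against 172 and 108 CPM in WT bilirubin (log2 ratio -1.54). Spi1 had 227 and 154 CPM in the knockout, against 424 and 281 CPM in WT bilirubin (-0.74). Atf3, a stress-induced factor, was lower too, at 404 and 30.8 CPM in the knockout, against 444 and 513 CPM in WT bilirubin (-0.98). Without knockout replicate 2 its ratio was -0.22, and without knockout replicate 1 it was -2.71. The higher gene was Id2, at 101 and 154 CPM in the knockout, against 20.2 and 64.8 CPM in WT bilirubin, a repressor of other factors that dendritic and cytotoxic cells use. Id2 was not separated among the 63 cells.

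Among secreted factors, Ccl2 had no UMI in the knockout. It had 0 and 0 UMIs in the knockout, against 41 and 35 in WT bilirubin, or 414 and 189 CPM in WT bilirubin. Against a floor of 3 UMIs over the knockout group, Ccl2 was 9.96-fold lower there. That value takes UMIs as independent counts, so it is no lower bound where UMIs come from few cells. The Ccl2 UMIs were concentrated. In WT bilirubin replicate 2, 1 classical monocyte-like cell held 26 of the library's 35, and another of WT bilirubin replicate 1 held 19 of 41. WT vehicle had 0 and 323 CPM. The ratio on the 50 CPM scale was -2.81 and ran from -4.02 to -1.41 over the alternatives. Of 7 chemokine ligands compared, Ccl2 and Ccl6 were lower in the knockout, Ccl4 was higher and 4 overlapped.

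Il1b had 227 and 123 CPM in the knockout, against 787 and 562 CPM in WT bilirubin, with a log2 ratio of -1.69, and 0 and 706 CPM in WT vehicle. Over the alternatives the ratio ran from -3.17 to -1.03. Within clusters 1 and 2 it was at 294 and 162 CPM in the knockout and 244 and 544 CPM in WT bilirubin, where the libraries overlapped, and its highest levels were in the dendritic cell-like cluster of WT bilirubin. Of 13 cytokine and NF-kB genes compared, Il1b and the bacterial lipopeptide receptor Tlr2 were lower in the knockout and 11 overlapped. Nfkbia, the NF-kB inhibitor that NF-kB itself induces, was among the overlapping genes, at 833 and 61.6 CPM in the knockout and 535 and 589 CPM in WT bilirubin.

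The calcium-binding protein gene S100a6 had 1565 and 1416 CPM in the knockout, against 3340.4 and 6539 CPM in WT bilirubin (-1.70). Of the 1211 UMIs of WT bilirubin replicate 2, 682 were in its 8 neutrophil-like cells, and among the 63 cells the ratio was -1.57. S100a4 had 416 and 277 CPM in the knockout, against 939 and 977 CPM in WT bilirubin (-1.35). The lectin gene Lgals3 had 1072 and 708 CPM in the knockout, against 1938 and 1318 CPM in WT bilirubin (-0.84), and Vcan had 12.6 and 0 CPM in the knockout, against 101 and 124 CPM in WT bilirubin (-1.53). Within clusters 1 and 2, however, S100a6, S100a4 and Lgals3 overlapped. S100a6 was at 1779 and 1055 CPM in the knockout there, against 4465 and 612 CPM in WT bilirubin. S100a4 was at 424 and 365 CPM in the knockout, against 1177 and 169.9 CPM in WT bilirubin, and Lgals3 at 1355 and 568 CPM in the knockout, against 2222 and 68.0 CPM in WT bilirubin. Lyz2 overlapped in all 84 cells, at 3558 and 7944 CPM in the knockout and 6428 and 4288 CPM in WT bilirubin, and so did the macrophage growth factor receptor gene Csf1r.

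The interferon-inducible membrane gene Ifitm1 had the lowest ratio of the genes named here, -3.02, with 12.6 and 0 CPM in the knockout, against 626 and 189 CPM in WT bilirubin. It was also a leading gene of the dendritic cell-like cluster, and without WT bilirubin replicate 1 its ratio was -2.09. Within clusters 1 and 2 it overlapped, at 16.3 and 0 CPM in the knockout and 689 and 0 CPM in WT bilirubin. Its relative Ifitm3 had 921 and 2063 CPM in the knockout, against 3229 and 2527 CPM in WT bilirubin and was the 1 gene lower of 5 interferon-response genes compared. G0s2 and Mmp8, a lipolysis inhibitor and a collagenase, were among the 8 lowest ratios as well. Neither was separated once the neutrophil-like and T cell-like clusters were left out. G0s2 was at 2.64 CPM outside the neutrophil-like cluster, too low to compare.

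Several MHC class II genes were lower in the knockout, and 1 library carried much of this. H2-Aa had 707 and 0 CPM in the knockout, against 1019 and 1566 CPM in WT bilirubin (-1.74), and Cd74 had 2549 and 0 CPM in the knockout, against 3139 and 4034 CPM in WT bilirubin (-1.46). H2-Eb1 had 744 and 0 CPM in the knockout, against 918 and 1895 CPM in WT bilirubin (-1.79). All 3 were at 0 in knockout replicate 2, which had 3 cells and no dendritic cell-like one. Without that library the ratios were -0.83 for H2-Aa, -0.48 for Cd74 and -0.87 for H2-Eb1, and without knockout replicate 1 they were -4.75, -6.18 and -4.86. Of 8 genes of the list compared, 4 were lower in the knockout and 4 overlapped, with a median ratio of -1.15. Among the 63 cells, and under the scaling by the median ratio of genes described below, 6 were lower. Within clusters 1 and 2 Cd74 overlapped, at 816 and 0 CPM in the knockout and 66.6 and 4145 CPM in WT bilirubin. The 1 dendritic cell-like cell of the knockout held 152 Cd74 UMIs. Its level was 59702 CPM, against 18672 and 19504 CPM in that cluster in WT bilirubin, and not lower. H2-Aa was at 18068 CPM in that cell, against 6062 and 8077 CPM.

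**Figure D4:**
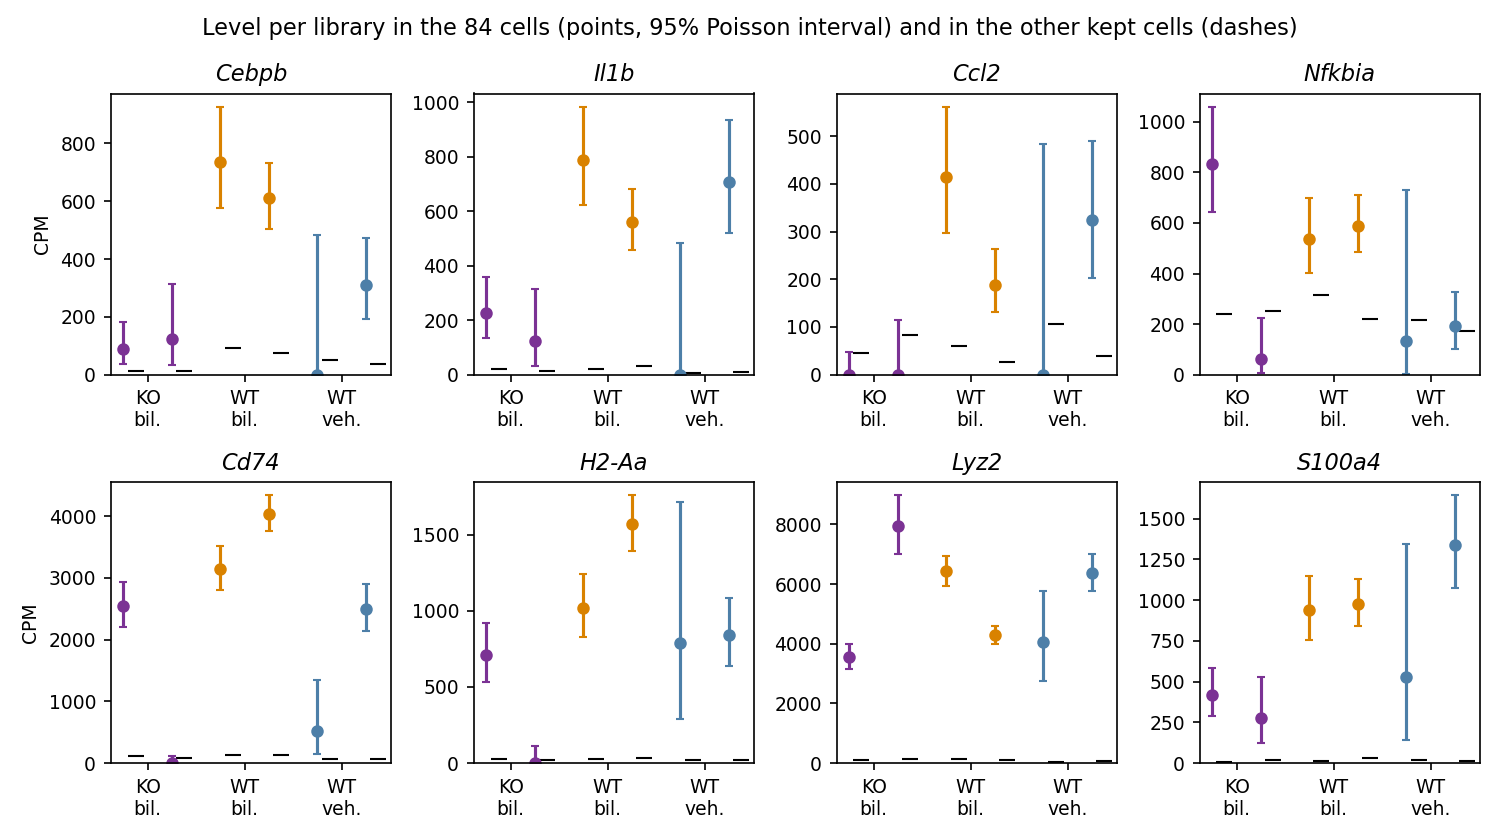
CPM of 8 genes in the summed cells of each library (points with 95% exact Poisson intervals) and in the other kept cells of the library (dashes). Cebpb, Il1b and Ccl2 lie lower in both knockout libraries than in both WT bilirubin libraries, while Lyz2 overlaps.

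Several of the transcripts that were higher in the knockout belong to other brain cells. Mt3, a metallothionein of astrocytes and neurons, had 1968 and 4803 CPM in the knockout, against 1130.3 and 778 CPM in WT bilirubin (1.77). Kl, a choroid plexus gene, had 177 and 616 CPM in the knockout, against 121 and 86.4 CPM in WT bilirubin (1.54), and without knockout replicate 2 its ratio was 0.56. All Kl UMIs of the knockout, 14 and 20, were in cluster 2, and 1 cell of knockout replicate 2 held 17 of its 20. Glul, the glutamine synthetase of astrocytes, had 303 and 493 CPM in the knockout, against 101 and 119 CPM in WT bilirubin (1.49). The glutamate transporter Slc1a2 (1.52) and the chaperone gene Pdia4 (1.54) were also among the 8 highest, and neither was separated among the 63 cells. The 6 astrocyte markers summed to 479 and 1447 CPM in the knockout cells and 394 and 146 CPM in the WT bilirubin cells, with all 6 read. In the other kept cells they summed to 1640.2 and 942 CPM in the knockout and 1149 and 569 CPM in WT bilirubin. The 6 choroid plexus markers summed to 23619 and 113704 CPM in the knockout cells and 58593 and 23955 CPM in the WT bilirubin cells, which overlapped. The part of free RNA in these levels was not tested.

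Ccl4 was among the 8 highest ratios, at 1085 and 369 CPM in the knockout, against 293 and 146 CPM in WT bilirubin (1.53). It encodes a chemokine of activated macrophages and lymphocytes. Of the 86 UMIs of knockout replicate 1, 72 were in the 4 cells of cluster 2, and without that library the ratio was 0.64.

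With bilirubin against vehicle in WT mice, Cebpb, Nfkbia and Cd74 were among the higher genes and the neuronal RNAs Bc1 and Meg3 among the lower. Over 2206 genes, 427 were higher (19.4%) and 342 lower (15.5%) without overlap, and the median ratio was 0.12. When libraries were scaled by the median ratio of genes instead of by total UMIs, the split was 588 higher and 177 lower, and the median ratio was 0.37. Among the 63 cells, 23.3% of 1636 genes were higher and 13.4% lower. Where a gene is at 0 in WT vehicle replicate 1, its separation rests on WT vehicle replicate 2 alone. Of 33 named genes without overlap, the ratio of 20 shrank by more than 1.5 times when some 1 library was left out. Among the 63 cells 6 were not separated, whether overlapping or too low to compare.

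Of 12 cytokine and NF-kB genes compared, 5 were higher with bilirubin and 7 overlapped, with a median ratio of 0.72. Nfkbia had 535 and 589 CPM in WT bilirubin, against 131 and 191 CPM in WT vehicle (1.53). Within clusters 1 and 2 it overlapped, at 156 and 646 CPM in WT bilirubin and 131 and 246 CPM in WT vehicle. Clec4e, a receptor for products of dead cells and mycobacteria, had 80.7 and 281 CPM in WT bilirubin, against 0 and 58.8 CPM in WT vehicle (1.54). Tnfaip3, Nfkbiz and the decoy receptor gene Il1r2 were the others, and Il1r2 and Tnfaip3 were not among the genes separated in the 63 cells. Il1b overlapped, at 787 and 562 CPM in WT bilirubin and 0 and 706 CPM in WT vehicle. Of 7 chemokine ligands, Cxcl2, which draws neutrophils, was higher at 182 and 437 CPM in WT bilirubin, against 0 and 103 CPM in WT vehicle (1.83), and so was Ccl3. Without WT bilirubin replicate 2 the ratio was 1.19 for Cxcl2 and 0.72 for Clec4e.

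Cebpb was 1.82 higher on the log2 scale, at 737 and 610.2 CPM in WT bilirubin, against 0 and 309 CPM in WT vehicle. The ratio was 1.01 without WT vehicle replicate 1, which had no Cebpb UMI, and 3.85 without WT vehicle replicate 2. Within clusters 1 and 2, where cell type was not held fixed, the libraries did not overlap either. Cebpb was at 778 and 476 CPM in WT bilirubin there, against 0 and 398 CPM in WT vehicle. Of the transcription factors compared, Rel, Runx1 and Tcf4 were lower with bilirubin, although Rel overlapped under the other scaling, and Tcf4 was at 30.3 and 91.8 CPM in WT bilirubin, against 525 and 279 CPM in WT vehicle. Ifitm1 was higher too, at 626 and 189 CPM in WT bilirubin, against 0 and 73.5 CPM in WT vehicle (2.40).

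Of 8 MHC class II and costimulation genes, 4 were higher and 4 overlapped, with a median ratio of 0.63. Cd74 had 3139 and 4034 CPM in WT bilirubin, against 525 and 2499 CPM in WT vehicle (1.22), and the costimulator Cd86 had 60.6 and 75.6 CPM in WT bilirubin, against 0 and 44.1 CPM in WT vehicle (0.71). Without WT vehicle replicate 1 the Cd74 ratio was 0.51. Within clusters 1 and 2 Cd74 overlapped, at 66.6 and 4145 CPM in WT bilirubin and 525 and 3199 CPM in WT vehicle. The dendritic cell-like cluster had 3 and 7 cells in WT bilirubin and 0 and 0 in WT vehicle. In WT vehicle replicate 2, however, 2 of the 14 cells of cluster 1 held all 57 H2-Aa UMIs of that cluster.

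The 8 highest and 8 lowest ratios included neutrophil granule genes and neuronal RNAs. S100a8 had 9264 and 34679 CPM in WT bilirubin, against 394 and 5909 CPM in WT vehicle (2.78), and S100a9 (2.47) and Ngp (2.33) were higher too. The neutrophil-like cluster had 1 and 8 cells in WT bilirubin and 0 and 1 in WT vehicle. Without it and the T cell-like cluster, S100a9 and Ngp were no longer separated, while S100a8 had a ratio of 1.94. Ngp was at 5.27 CPM outside the neutrophil-like cluster, too low to compare. Bc1, a neuronal non-coding RNA, had 363 and 340.2 CPM in WT bilirubin, against 6436 and 2793 CPM in WT vehicle (-3.54). Meg3 had 60.6 and 43.2 CPM in WT bilirubin, against 657 and 735 CPM in WT vehicle (-2.87). The 6 neuron markers summed to 545 and 416 CPM in the WT bilirubin cells and 6829.5 and 3263 CPM in the WT vehicle cells, and in the other kept cells to 1659 and 1551 CPM in WT bilirubin and 19563 and 4587 CPM in WT vehicle. Phactr1, Ptprd, Snhg11 and Csmd1 were also among the 8 lowest, with ratios of -2.90 to -2.38. The other 4 of the 8 highest were Wfdc21, Hmgn2, Spint2 and the choroid plexus gene Ttr, whose level was 56039 and 22372 CPM in WT bilirubin, against 131 and 14346 CPM in WT vehicle. The haemoglobin gene Hbb-bs had 535 and 302 CPM in WT bilirubin, against 1051 and 6717 CPM in WT vehicle.

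Ccl4 was lower with bilirubin, at 293 and 146 CPM in WT bilirubin, against 7880.2 and 808 CPM in WT vehicle (-4.03). All 60 UMIs of WT vehicle replicate 1 were in 1 cell. The ratio was -1.67 without that library and turned to 1.92 when at least 4 selecting genes were required. The histone gene H2ac8 had the lowest ratio of the genes named here (-5.09), with 41 UMIs in the 2 cells of WT vehicle replicate 1 and 3 in WT vehicle replicate 2. Without WT vehicle replicate 1 the ratio was -0.22, and among the 63 cells the gene overlapped.

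Knockout cells under bilirubin were also set against WT vehicle cells, a comparison that shares its libraries with both others. Over 1314 genes, 264 were higher (20.1%) and 237 lower (18%) without overlap, with a median ratio of 0.06. Among the 63 cells, 23.4% of 1062 genes were higher and 16.4% lower. Under the other scaling the split was 328 higher and 119 lower, with a median ratio of 0.29. Of 22 named genes without overlap, the ratio of 12 shrank by more than 1.5 times when some 1 library was left out. Among the 63 cells 5 were not separated, whether overlapping or too low to compare. Cebpb overlapped, at 88.3 and 123 CPM in the knockout and 0 and 309 CPM in WT vehicle, and so did Il1b. S100a6 was lower at 1565 and 1416 CPM in the knockout, against 4728 and 4351 CPM in WT vehicle (-1.58), and Lgals3 at 1072 and 708 CPM in the knockout, against 1839 and 1573 CPM in WT vehicle (-0.90). Fcer1g, the Fc receptor signalling chain, was lower at 1994 and 1817 CPM in the knockout, against 3283 and 4704 CPM in WT vehicle (-1.05), although it overlapped under the other scaling. The choroid plexus transcripts Kl and Enpp2 were among the higher genes, with Kl at 177 and 616 CPM in the knockout, against 0 and 14.7 CPM in WT vehicle (2.96), and Enpp2 at 1426 and 4988 CPM in the knockout, against 131 and 882 CPM in WT vehicle. Meg3, Bc1, Phactr1, Ptprd and Pcdh9 were among the lowest, with Meg3 at 63.1 and 30.8 CPM in the knockout, against 657 and 735 CPM in WT vehicle. Of 11 phagocytosis and lysosome genes, the protease genes Ctsl and Ctsb, Grn and Cd9 were higher, and Fcgr3, Fcer1g and Cd68 were lower, of which only Cd68 was still separated under the other scaling.

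Lists tied to bilirubin, the channel and stress hormones were short once low genes were left out. Of 7 haem, iron and NRF2 genes, the thioredoxin gene Txn1 was lower at 454 and 523 CPM in the knockout, against 575 and 913 CPM in WT bilirubin, and overlapped under the other scaling. None of 7 was separated between WT bilirubin and WT vehicle, although the peroxiredoxin gene Prdx1 was higher with bilirubin among the 63 cells and under the other scaling. Of 6 between the knockout and WT vehicle, Prdx1 was higher in the knockout, and Txn1 and the ferritin gene Fth1 were lower but overlapped under the other scaling. The haem-degrading enzyme Hmox1 had 4 and 0 UMIs in the knockout, 7 and 2 in WT bilirubin and 0 and 4 in WT vehicle, too few for the comparison. Of 3 TRP and calcium-entry genes, the calcium-release channel Itpr1 was higher at 101 and 154 CPM in the knockout, against 80.7 and 54.0 CPM in WT bilirubin, and Itpr2 was lower on 2 and 1 UMIs in the knockout, against 6 and 14 in WT bilirubin. Of 3 between WT bilirubin and WT vehicle, the calcium channel gene Orai1 was higher with bilirubin, at 121 and 64.8 CPM in WT bilirubin, against 0 and 58.8 CPM in WT vehicle (0.85), and Itpr1 was lower, at 80.7 and 54.0 CPM in WT bilirubin, against 394 and 147 CPM in WT vehicle (-1.45). Of 8 glucocorticoid targets, Dusp1 was lower at 189 and 30.8 CPM in the knockout, against 383 and 232 CPM in WT bilirubin (-1.16), and Zfp36 at 315 and 123 CPM in the knockout, against 333 and 340.2 CPM in WT bilirubin.

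Immediate-early genes, which tissue dissociation also induces, are given as counts. Of 17 compared, Hsp90aa1 was higher, Atf3 and Fosb were lower and 14 overlapped when the knockout was set against WT bilirubin. Fos was at 1438 and 123 CPM in the knockout, 848 and 842 CPM in WT bilirubin and 131 and 867 CPM in WT vehicle. Of 17 between WT bilirubin and WT vehicle, 4 were higher, 1 lower and 12 overlapped. Among the 63 cells 8 were higher, 1 lower and 8 overlapped, with Jun, Junb, Fos and Ier3 among the higher, and under the other scaling 6 were higher and 11 overlapped. Of 12 receptors of recruited myeloid cells, C5ar1, Ccr1 and Itgb2 were lower in the knockout in the same comparison, and 9 overlapped. Of 9 between WT bilirubin and WT vehicle, C5ar1, the receptor for the complement fragment C5a, was higher with bilirubin, at 70.6 and 108 CPM in WT bilirubin, against 0 and 44.1 CPM in WT vehicle. C5ar1 was not separated among the 63 cells in either comparison.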

How the data were processed

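The data are droplet single-cell RNA libraries of freshly dissociated mouse brain cells, 2 per group. The authors deposited UMI counts per gene and barcode for each library, not normalized, with 4137 to 24309 barcodes per library. The submitters' processing notes name Cell Ranger 8.0.0 and Scanpy 1.9.6, while the matrix headers name Cell Ranger 9.0.1, per the file headers; both GRCm39 and mm10 are listed, so no coordinates are used. The aligner settings and the filter between raw and deposited barcodes are not given in the sources used here.

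Kept barcodes, the 8 selecting and 8 excluded genes, marker lists and gene lists were chosen with earlier results of these data known. The cells of each library were summed, and CPM computed from their own total. A quasi-likelihood test was planned only if each library held at least 10 of the cells, which was not so. The 20-UMI minimum, the 50 CPM added before ratios, the description by overlap, the median-of-ratios scaling, the group of 63 cells and the genes followed by cluster were therefore chosen after values were seen. Genes are named by size (8 highest and 8 lowest ratios without overlap, apart from the 16 rule genes, predicted, ribosomal, mitochondrial and haemoglobin genes) and as the 2 largest ratios per list, plus Trpm2, Cebpb, Lyz2, Csf1r, Cst3 and Cd74; other genes were added after their values were seen. Cells were clustered with Scanpy 1.11.5 (2000 genes, 10 components, 10 neighbours, Leiden resolution 0.5; resolution 1 gave 7 clusters and was also looked at). A cluster was named when at least 3 markers of a list were at least 2-fold higher in at least 25% of its cells and 1.5 times as many as of the next list, thresholds set after the clusters were seen. Doublets were scored per library with Scrublet, without mean centring for run time. Its automatic threshold marked 0 to 42.6% of a library, so after that was seen the highest scores were marked instead, at 0.8% per 1000 cells. Marked cells were kept; 2 of the 84 cells were marked. Alternatives were doublets removed, stricter rules, a 1000-UMI minimum, other scaling, and each library left out. On simulated data with large changes in well-counted genes and with counting error only, the overlap description found nearly all changed genes. Unchanged genes were often separated too, so it is no test. Smaller changes, and genes carried by few cells, were not simulated. Results for some genes are not reported here.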

Additional observations from a re-analysis of the deposited data

How the results depend on the processing

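Of the named genes' ratios under the alternatives, 1320 moved by less than the spread between libraries, 120 by more, and 12 changed sign among genes without overlap. The first 2 counts include 61 sign changes, in 27 ratios, of genes whose libraries overlapped. Genes without overlap numbered 753 (knockout against WT bilirubin), 769 (WT bilirubin against WT vehicle) and 501 (knockout against WT vehicle). With 0 excluded genes allowed they were 356, 435 and 125, and with cells holding at least 2 markers of another blood cell type left out 385, 352 and 165. With at least 4 selecting genes the second was 341. Leaving out 1 library gave 830 to 1625, 774 to 1563 and 528 to 777, where a group of 1 library overlaps less by construction. Leaving out 1 library, the share differences ran from -0.334 to 0.00596, 0.0252 to 0.365 and -0.000903 to 0.0632 percentage points; the first turned positive without WT bilirubin replicate 2 and the third negative without WT vehicle replicate 1. With 0 excluded genes the third was -0.00689. Signs changed for Itpr1 (-1.33) and Dusp1 (0.073) in knockout against WT bilirubin and Ptprd (0.11) in knockout against WT vehicle with 0 excluded genes. With at least 4 selecting genes they changed for Ccl4 (1.92), C5ar1 (-0.056) and Bst2 (0.74) in WT bilirubin against WT vehicle and H2-Aa (1.30) in knockout against WT vehicle. With cells of other blood types left out they changed for Itpr2 (0.18) in knockout against WT bilirubin, Ttr (-0.15) in WT bilirubin against WT vehicle, and H2ac8 (0.38), Fn1 (0.10) and Txn1 (0.52) in knockout against WT vehicle. The cause was not tested.

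No library fit over genes was made, so the planned normalization, low-count filter, DESeq2, 4-library and interaction alternatives were not run, nor was a replicate block over genes. For the share, a replicate block of sign flips within label numbers left the differences at -0.164, 0.195 and 0.0311 and gave exact p = 1, p = 0.5 and p = 1, with 0.5 the smallest it can give. The numbers pair no libraries by design, and the differences between replicates 1 and 2 correlated over 1559 genes at -0.11, -0.14 and -0.03 between the groups; with the numbers crossed the block gave an exact p = 1 for all 3 differences. Depth limits the results: WT vehicle replicate 1 rests on 7614 UMIs and knockout replicate 2 on 3 cells.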

Other observations

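A few cells carried most of the UMIs of some immune genes. Isg15, an interferon-induced ubiquitin-like gene, had 4 and 0 UMIs in the knockout, 8 and 4 in WT bilirubin and 0 and 52 in WT vehicle. Of the 52 UMIs of WT vehicle replicate 2, 50 were in 3 cells of cluster 1, and 41 of these in 1 cell. Ccl4 had 45 of the 86 UMIs of knockout replicate 1 in 1 cell of cluster 2 and 34 of the 55 UMIs of WT vehicle replicate 2 in 1 cell of cluster 1.

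Proliferation genes were read in a minority of the 84 cells. At least 3 of 8 cycling markers had a UMI in 11 cells, 3 of them in each of the T cell-like, neutrophil-like and classical monocyte-like clusters. The 11 cells numbered 1 and 0 in the knockout, 2 and 6 in WT bilirubin, and 1 and 1 in WT vehicle.

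Markers of cells that the rule set out to exclude differed in how fully they were absent. Of 8 border macrophage markers, Pf4, Lyve1, Cbr2 and Folr2 were at 0 in all 84 cells, and of 8 B cell markers Ms4a1, Iglc2 and Pax5 were among those at 0. The 10 microglia markers all had UMIs, and 22 of the 84 cells held at least 3 of them. That list holds Tmem119, P2ry12 and Siglech, which the rule limited.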
